A study of Mus musculus with 4 samples.

Results

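Ampd3, Ampd2, Gda, Xdh, Ada, Pnp, Nt5e, Hprt, Adk and Aprt encode enzymes that break purines down or return them to the nucleotide pool. They were taken from the table by symbol, and all 10 were found among its 55536 rows. Their choice was made with earlier results of these same libraries known, for both comparisons described here, so their values are given as a description and no member was tested. RNA was sequenced in bulk from the stromal vascular fraction (what is left of fat tissue once adipocytes are removed) of inguinal white fat of wild-type male mice at postnatal day 21. There were 4 libraries, each from a pool of 3 mice: LnF1 given water, ObF1 given water, LnF1 given 1,3BD and ObF1 given 1,3BD, as the labels write the offspring groups and the drinks. The series concerns obesity of the parents and the programming of adipose progenitors. No combination of parents and drink had a replicate, so nothing here measures the spread between pools of 1 kind.

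AMP deaminases turn AMP into IMP, and adenosine deaminase turns adenosine into inosine. Purine nucleoside phosphorylase then splits the ribose from inosine and guanosine, guanine deaminase turns guanine into xanthine, and xanthine dehydrogenase makes xanthine from hypoxanthine and uric acid from xanthine. Salvage runs the other way: hypoxanthine, guanine and adenine are rejoined to ribose phosphate by Hprt and Aprt, and adenosine is phosphorylated to AMP by Adk. In mice, xanthine dehydrogenase of adipose tissue has been linked to uric acid release and to adipocyte differentiation.

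Depth was 24586827 to 26000090 reads a library, recovered from deposited values on a CPM scale (reads scaled to library size). Ptprc, carried by white blood cells, did not exceed 0.150 CPM, and Cd3e, Cd3d, Cd79b and Hbb-bs had 0 reads in all 4 libraries. The floor used for a count of 0 was the value of 3 reads, 0.108 to 0.130 CPM. Trac of the T cell list stood at 2.97 and 3.78 CPM with water and at 0.179 and 0.225 CPM with 1,3BD, and Cd79a of B cells at 0.0849 to 0.287 CPM. Of the 3 mature adipocyte markers, Adipoq and Lep had 0 reads, while Plin1 stood at 0.0849 CPM (LnF1) and 0.0434 CPM (ObF1) with water and at 5.09 and 1.84 CPM with 1,3BD. Epcam and Krt8 of epithelium had 0 reads. The 7 fibroblast and progenitor markers summed to 29800 CPM (LnF1) and 34081 CPM (ObF1) with water and to 9049 and 6962 CPM with 1,3BD. These sums were mostly Col1a1 and Col1a2. Col1a1 stood at 16522 and 18761 CPM with water and at 4307 and 3371 CPM with 1,3BD, LnF1 first. Pdgfra of the same list was instead higher with 1,3BD, at 281 and 412 CPM beside 243 and 236 CPM with water. Dcn was lower with 1,3BD in LnF1 (68.7 against 328 CPM) and higher in ObF1 (81.1 against 63.9 CPM). Lum, Pi16 and Dpp4 were lower with 1,3BD in both groups but did not exceed 6.54 CPM in any library. The sums therefore do not describe every marker of the list. The 4 macrophage markers summed to 18.6 CPM (LnF1) and 14.4 CPM (ObF1) with water and to 4.02 and 8.17 CPM with 1,3BD. Cd68 of that list was instead higher with 1,3BD in both groups. The 3 endothelial markers summed to 4.20 and 11.3 CPM with water and to 0.681 and 2.10 CPM with 1,3BD, LnF1 first. White blood cell and endothelial markers were thus scarce beside Col1a1 in every library. By these markers, the levels below are not those of a mixed fraction rich in such cells, whatever the name of the fraction implies. The reason for their scarcity was not tested. The 4 mural and myofibroblast markers summed to 7865 CPM (LnF1) and 8357 CPM (ObF1) with water and to 121 and 179 CPM with 1,3BD. Acta1 of the skeletal muscle list stood at 86.5 and 61.8 CPM with water and at 1.83 and 1.87 CPM with 1,3BD. Ckm and Ampd1 of that list had at most 1 and 2 reads. The part of these marker changes in the drink differences below was not tested. In bulk RNA, fewer cells of a type and less RNA per cell cannot be told apart.

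RefSeq promoter windows of GRCm38.p6, 250 bases before to 50 bases after a gene's start, were found for 9 of the 10 genes (all but Xdh), in 13 windows. They are shown for the pair of genes with the widest drink and parental differences, Gda and Ampd3, and for Hprt, Aprt and Ada as examples of the rest. Capitals mark the GC box GGGCGG on either strand.
Gda, chr19:21472612-21472911, minus strand: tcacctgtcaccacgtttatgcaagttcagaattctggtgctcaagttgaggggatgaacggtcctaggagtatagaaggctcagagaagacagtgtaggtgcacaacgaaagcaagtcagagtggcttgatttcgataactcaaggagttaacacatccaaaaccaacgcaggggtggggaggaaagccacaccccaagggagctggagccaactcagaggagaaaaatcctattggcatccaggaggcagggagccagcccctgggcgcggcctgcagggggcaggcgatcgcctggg
Ampd3, chr7:110768372-110768671, plus strand: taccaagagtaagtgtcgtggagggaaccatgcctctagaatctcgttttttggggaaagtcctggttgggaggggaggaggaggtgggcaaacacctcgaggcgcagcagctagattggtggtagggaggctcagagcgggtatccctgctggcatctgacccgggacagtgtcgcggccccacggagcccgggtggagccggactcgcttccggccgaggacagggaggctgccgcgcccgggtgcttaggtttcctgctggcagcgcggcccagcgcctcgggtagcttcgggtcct
Hprt, chrX:52987828-52988127, plus strand: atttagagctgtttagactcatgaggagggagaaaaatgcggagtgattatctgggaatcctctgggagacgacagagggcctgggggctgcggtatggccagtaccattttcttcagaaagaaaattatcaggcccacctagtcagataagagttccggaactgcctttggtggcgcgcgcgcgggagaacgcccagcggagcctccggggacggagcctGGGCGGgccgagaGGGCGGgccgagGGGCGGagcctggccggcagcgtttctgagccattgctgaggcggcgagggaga
Aprt, chr8:122576858-122577157, minus strand: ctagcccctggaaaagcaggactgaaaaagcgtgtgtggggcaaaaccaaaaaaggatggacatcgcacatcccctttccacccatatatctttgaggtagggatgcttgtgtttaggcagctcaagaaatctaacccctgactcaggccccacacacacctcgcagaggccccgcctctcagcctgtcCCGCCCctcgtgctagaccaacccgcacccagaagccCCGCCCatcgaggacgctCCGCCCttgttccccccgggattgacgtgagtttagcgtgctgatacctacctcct
Ada, chr2:163750190-163750489, minus strand: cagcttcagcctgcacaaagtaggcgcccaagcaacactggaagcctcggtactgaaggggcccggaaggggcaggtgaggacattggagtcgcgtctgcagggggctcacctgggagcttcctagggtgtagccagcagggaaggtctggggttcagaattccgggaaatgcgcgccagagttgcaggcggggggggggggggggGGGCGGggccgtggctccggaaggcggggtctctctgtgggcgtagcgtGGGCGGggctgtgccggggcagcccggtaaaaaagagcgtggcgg
A GC box was present in a window of 7 of the 9 genes and in none of the windows of Gda or Ampd3. Among all 32851 windows, 35.7% held it, a share per window, whereas a gene was counted here if any of its windows held it. Hprt had 3 matches, Aprt 3, Ada 2 and the first Adk window 4. The TATA box TATAAA (13.6% of all windows) and the glucocorticoid half-site AGAACA (19.0%) were in none of the 13 windows. The antioxidant element TGACNNNGC (12.4%) was in 1 window, the downstream one of Adk. The Gda window held 9 CpG pairs, against 22 for Hprt, 22, 3 and 3 for the Ampd3 windows, and a median of 7 over all windows. These are matches of letters, and nothing about binding was measured.

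**Figure D1:**
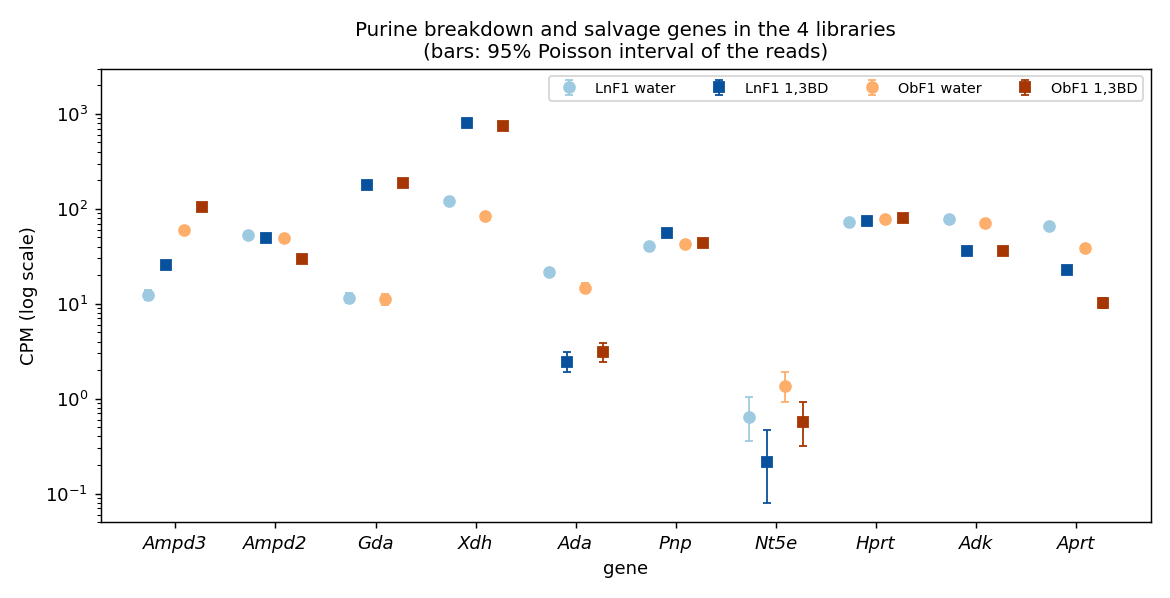
Level of each of the 10 genes in CPM (log axis) in each library, 1 point a library (circles for water, squares for 1,3BD, blue for LnF1, orange for ObF1), with 95% Poisson intervals that cover counting error only. Gda and Xdh are higher in both 1,3BD libraries, Ampd3 is higher in both ObF1 libraries, and Hprt stays between 73.3 and 80.6 CPM.

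Levels between genes were compared per kilobase of exon, from GENCODE M21 gene models. With water, Hprt was the most abundant of the 10, at 56.8 CPM per kilobase in LnF1 and 60.0 in ObF1, followed by Aprt. With 1,3BD, Xdh came first, at 87.7 CPM per kilobase in LnF1 and 80.2 in ObF1, then Hprt at 57.2 and 62.5 and Gda at 28.5 and 30.1. Ampd2, Pnp, Adk and Ada lay between 7.36 and 10.8 CPM per kilobase in the water libraries and could not be ordered, since no spread between pools is known. Nt5e was last in all 4 libraries, at 0.0250 to 0.157 CPM per kilobase. Of the summed level of the 10 genes per kilobase, the 7 breakdown enzymes made up 31.1% in LnF1 water and 34.8% in ObF1 water. With 1,3BD their share was 65.9% in LnF1 and 66.8% in ObF1, of which Xdh alone gave 39.7% and 36.5%. Gda gave 12.9% and 13.7% with 1,3BD, beside 1.18% and 1.26% with water, LnF1 first. Ampd3 had a somewhat larger share with 1,3BD in both groups. Ampd2, Ada, Pnp and Nt5e had smaller ones, so the breakdown enzymes did not rise as a class.

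**Figure D2:**
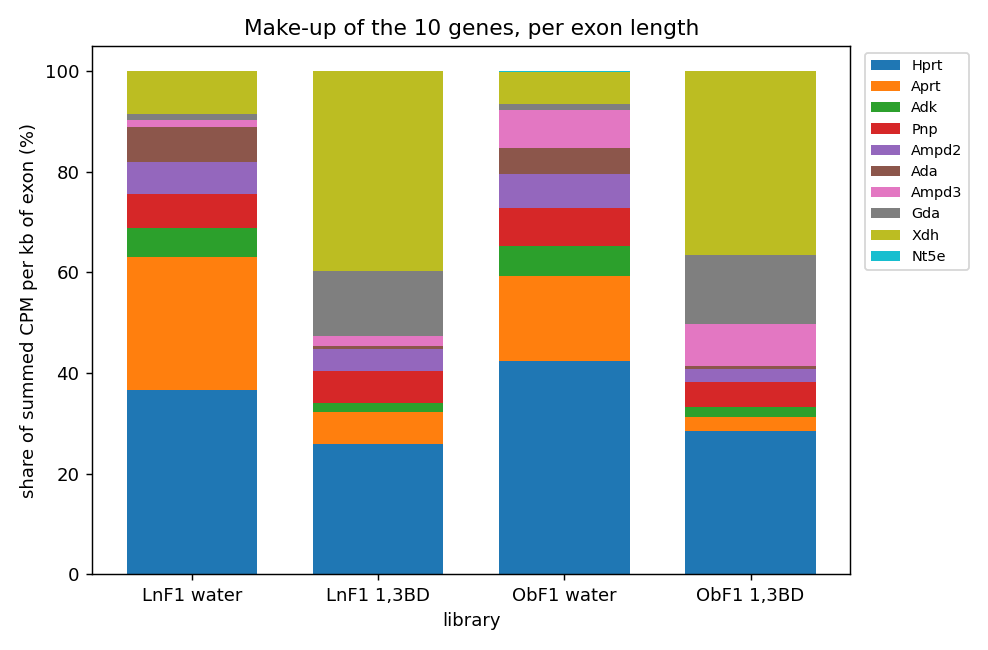
Share of each gene in the summed CPM per kilobase of exon of the 10 genes, in percent, 1 bar for each of the 4 libraries. Hprt has the tallest segment with water (36.6% in LnF1 and 42.3% in ObF1) and Xdh the tallest with 1,3BD (39.7% and 36.5%).

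The drink comparison asked how the libraries given 1,3BD differ from those given water. Gda and Xdh had higher values with 1,3BD in LnF1 and in ObF1, and Ada, Aprt and Adk had lower ones. Ampd3 was also higher in both, by 2.08-fold in LnF1 and 1.74-fold in ObF1. Nt5e, at 6 to 31 reads a library, was lower in both, by 2.96-fold and 2.39-fold. Xdh (chromosome 17, 73883895 to 73950196, minus strand, mm10) stood at 120 CPM in LnF1 water, 84.0 in ObF1 water, 804 in LnF1 1,3BD and 736 in ObF1 1,3BD. Both 1,3BD libraries were above both water libraries, by 6.69-fold in LnF1 and 8.77-fold in ObF1. In the additive fit, the log2 difference of Xdh was 2.94 (SE 0.20). Gda, guanine deaminase (chromosome 19, 21391307 to 21473445, minus strand), stood at 11.5 CPM in LnF1 water, 11.1 in ObF1 water, 178 in LnF1 1,3BD and 188 in ObF1 1,3BD. ObF1 was at 0.970 times LnF1 in water and 1.05 times in 1,3BD, while the drink difference was 15.5-fold in LnF1 and 16.9-fold in ObF1 (additive log2 difference 4.01, SE 0.21). Per kilobase, Gda lay above 26.4% of tested genes in LnF1 water and above 90.2% in LnF1 1,3BD.

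Ada, adenosine deaminase (chromosome 2, 163726584 to 163750239, minus strand), had the widest difference in the other direction, with 21.5 CPM in LnF1 water, 14.7 in ObF1 water, 2.44 in LnF1 1,3BD and 3.07 in ObF1 1,3BD. The 1,3BD values rest on 68 and 82 reads and both lay under both water values. The log2 difference was -3.10 in LnF1 and -2.23 in ObF1. Ada is abundant in T cells, of whose markers Cd3e and Cd3d were at 0 reads in every library and Trac was lower with 1,3BD. The part of Trac in the Ada values was not tested. Aprt (chromosome 8, 122574635 to 122576909, minus strand) had 66.2 CPM in LnF1 water, 39.0 in ObF1 water, 22.5 in LnF1 1,3BD and 10.1 in ObF1 1,3BD. Its drink difference was -1.55 on the log2 scale in LnF1 and -1.94 in ObF1. Adk (chromosome 14, 21052574 to 21448569, plus strand) was at 77.9 and 70.6 CPM with water and at 35.8 and 35.6 CPM with 1,3BD, LnF1 first. Its difference straddled 2-fold, at -1.12 in LnF1 and -0.99 in ObF1 on the log2 scale.

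Hprt, the salvage enzyme of hypoxanthine and guanine (chromosome X, 52988137 to 53021659, plus strand), was nearly level, at 73.3 CPM in LnF1 water, 73.7 in LnF1 1,3BD, 77.3 in ObF1 water and 80.6 in ObF1 1,3BD. The lowest and the highest of the 4 lay closer together than those of any other member on the log2 scale. Pnp (chromosome 14, 50931082 to 50965237, plus strand) stood at 40.9 CPM in LnF1 water, 55.4 in LnF1 1,3BD, 43.0 in ObF1 water and 43.5 in ObF1 1,3BD, so that LnF1 1,3BD alone stood above the rest. Its close paralog Pnp2 was counted at 4.70 to 9.69 CPM, and how the counting treated reads that match both is not given in the sources used here, so both are uncertain. Exons of Pnp also share 718 bases with Gm49342 on the same strand, which had at most 2 reads. Ratios per kilobase set these against each other. With water, Xdh was at 0.231 of Hprt in LnF1 and 0.153 in ObF1, and with 1,3BD at 1.53 and 1.28 times Hprt, while Aprt went from 0.721 and 0.403 of Hprt to 0.243 and 0.100.

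Past 2-fold in the same direction in both parental groups were 2 of the 9 members that reached 1 CPM in 2 or more libraries for higher with 1,3BD (Gda and Xdh), and 2 of 9 for lower (Ada and Aprt). Of all 12838 genes that passed this filter, 7.37% were past 2-fold higher in both groups and 12.6% past 2-fold lower. Members were chosen knowing these values, so nothing is read from the counts. The median drink difference of the 9 was 0.01 on the log2 scale in LnF1 and 0.02 in ObF1, beside -0.06 in each group over all genes. With library totals in place of the deposited scaling, drink differences shift up by 0.25 in LnF1 and 0.24 in ObF1, Ampd3 joins the higher members and Ampd2 turns from -0.09 to 0.17 in LnF1.

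**Figure D3:**
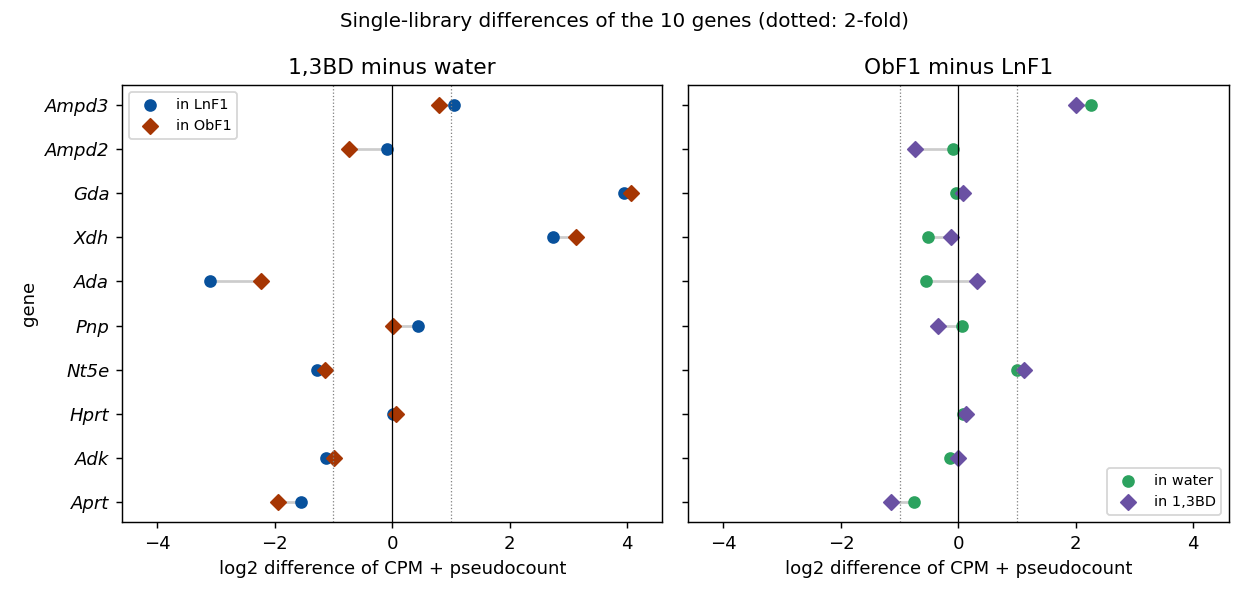
Log2 differences between single libraries for the 10 genes, with 1,3BD minus water in LnF1 and ObF1 on the left and ObF1 minus LnF1 in water and in 1,3BD on the right, and dotted lines at 2-fold. Gda (3.95 and 4.07) and Xdh (2.74 and 3.13) lie far right in the drink panel, and Ampd3 (2.26 in water) in the parental panel.

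The parental comparison asked how ObF1 differs from LnF1. Ampd3, the AMP deaminase first described from red blood cells (chromosome 7, 110768206 to 110812405, plus strand), was the member that differed by over 2-fold in both drinks among those that passed the filter. It stood at 12.4 CPM in LnF1 water, 25.8 in LnF1 1,3BD, 59.5 in ObF1 water and 104 in ObF1 1,3BD, from 292, 720, 1370 and 2762 reads. Both ObF1 libraries were above both LnF1 libraries, by 4.80-fold in water and 4.01-fold in 1,3BD (additive log2 difference 2.13, SE 0.22). Within each parental group the 1,3BD library was also the higher, by 2.08-fold in LnF1 and 1.74-fold in ObF1. The red cell markers were Hbb-bs, at 0 reads in all libraries, and Hba-a1, at 1 read in LnF1 1,3BD and 0 elsewhere. Exons of Ampd3 share 195 bases, 3.47% of its exon length, with Rnf141 on the opposite strand, and whether counting used strand is not given in the sources used here. Rnf141 had 810 reads in LnF1 water, 1257 in LnF1 1,3BD, 1210 in ObF1 water and 1535 in ObF1 1,3BD, and its part in the Ampd3 values was not tested.

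Ampd2, the AMP deaminase typical of liver and many other tissues (chromosome 3, 108074062 to 108086651, minus strand), did not follow Ampd3. Its values were 52.5 CPM in LnF1 water, 49.4 in LnF1 1,3BD, 49.6 in ObF1 water and 29.7 in ObF1 1,3BD, with the last library apart from the other libraries. Per kilobase, Ampd3 was at 0.219 of Ampd2 in LnF1 water, 0.485 in LnF1 1,3BD, 1.11 in ObF1 water and 3.23 in ObF1 1,3BD. Per kilobase, Ampd2 was thus above Ampd3 in both LnF1 libraries and Ampd3 above Ampd2 in ObF1 1,3BD, while in ObF1 water the pair cannot be ordered without a spread between pools. Ampd1, the muscle form, had at most 0.0750 CPM.

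Aprt was lower in ObF1 in both drinks, by 1.70-fold in water and 2.23-fold in 1,3BD. Nt5e, which encodes CD73, the surface enzyme that makes adenosine from AMP outside the cell (chromosome 9, 88327197 to 88372092, plus strand), was close to the detection limit. It had 15 reads in LnF1 water, 6 in LnF1 1,3BD, 31 in ObF1 water and 15 in ObF1 1,3BD. The matching levels were 0.637, 0.215, 1.35 and 0.562 CPM, with 95% Poisson intervals that overlapped between LnF1 water (0.356 to 1.05) and ObF1 water (0.915 to 1.91). The endothelial markers Pecam1, Cdh5 and Cldn5 summed to 4.20, 0.681, 11.3 and 2.10 CPM in the same order of libraries, and their part in the Nt5e values was not tested. Ada was 0.684 times LnF1 in ObF1 with water and 1.26 times with 1,3BD, and Gda, Xdh, Pnp, Hprt and Adk differed by less than 1.5-fold in either drink.

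Past 2-fold in both drinks was 1 of 9 members for higher in ObF1, Ampd3, and 0 of 9 for lower, where 0.732% of all 12838 genes were higher by this rule and 0.537% lower. The choice of members used these values. Ampd3 lay above 99.7% of tested genes for the difference in water and in 1,3BD, which is the ground on which it was noticed. The genes whose profiles over the 4 libraries were nearest to it, by Euclidean distance of centred log2 CPM among 9918 genes with a mean of 5 CPM or more, were H2-Ab1 (distance 0.330), a class II antigen presentation gene, Sox5 (0.630), a transcription factor gene, and Itga2 (0.633), an integrin gene. H2-Ab1 stood at 2.38 CPM (LnF1) and 11.6 CPM (ObF1) with water and at 6.63 and 22.6 CPM with 1,3BD. Nearest to Gda were Gprc5b (0.402), Draxin (0.457) and the glutathione synthesis gene Gclc (0.493). With 4 points a profile, many genes come close, and the distances are a description.

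Other genes of the pathway, 73 in 10 role lists, were tested with limma in the fit of all genes, additive in parents and drink. Of these, 52 passed the filter. By drink, 5 of 52 were higher with 1,3BD (9.62%), 20 were lower (38.5%) and 27 did not pass. Among all 12838 genes, 19.2% were higher and 24.8% lower. The lists, too, were chosen with earlier results of these data known, so their counts are a description. With library totals in place of the deposited scaling, 8 of the 52 were higher and 10 lower. The split over all genes then turned to 28.7% higher and 17.7% lower. The counts were 3 higher and 6 lower without the LnF1 water library, 1 and 4 without ObF1 water, 3 and 9 without ObF1 1,3BD, and 5 and 15 without LnF1 1,3BD. Over all genes the same fits called 668 and 1232, 816 and 1325, 1004 and 1739, and 1926 and 2731, against 2466 and 3189 with all libraries. By parents, limma called 0 of 52 in either direction, as did edgeR and DESeq2, with 2 of 52 at an unadjusted p under 0.05, beside 0.195% higher and 0.101% lower among all genes.

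The list of molybdenum cofactor genes, with the related oxidase Aox1, rose in 4 of 6 and fell in 1, and 4 rose with library totals too. Shares called over all genes were 19.2% higher and 24.8% lower, or 28.7% and 17.7% with library totals. Xanthine dehydrogenase and aldehyde oxidase both carry the molybdenum cofactor. Aox1, the aldehyde oxidase related to Xdh, went in LnF1 from 12.4 to 25.5 CPM and in ObF1 from 9.04 to 20.5 CPM (log2 1.11, SE 0.24, limma adjusted p = 0.00376). Mocs1, of the first step of cofactor synthesis, gave a log2 value of 0.96 (SE 0.22, limma adjusted p = 0.00475), and Mocs2, of the next step, gave 0.82 (SE 0.21, limma adjusted p = 0.00962). Gphn, which inserts molybdenum, rose by 0.72 and is named after its value was seen. Mocos, the sulfurase that activates the cofactor of these oxidases, fell in LnF1 from 7.22 to 2.90 CPM and in ObF1 from 6.08 to 3.19 CPM (log2 -1.10, limma adjusted p = 0.0187), a call that ended with library totals. Mocs3 did not pass (log2 0.19).

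The lists of nucleoside transport, adenosine receptors and cell surface nucleotide breakdown together held calls in both directions. Slc29a1, the equilibrative nucleoside transporter ENT1, fell in LnF1 from 28.4 to 10.9 CPM and in ObF1 from 26.2 to 6.34 CPM (log2 -1.70, SE 0.26, limma adjusted p = 0.000454). Of the 3 nucleoside transport genes tested it was the 1 that passed, with Slc29a2 at a log2 difference of 0.29 and Slc29a3, at 47.2 to 71.8 CPM, at -0.17. Of the adenosine receptors tested, 2 of 2 fell, Adora2a in LnF1 from 3.99 to 1.29 CPM and in ObF1 from 9.38 to 0.600 CPM (log2 -2.68), and Adora2b by a smaller amount (log2 -0.87, limma adjusted p = 0.0452), a call that ended with library totals. The ectonucleotidase gene Entpd2 fell at low levels, in LnF1 from 1.23 to 0.251 CPM and in ObF1 from 2.56 to 0.262 CPM. Alpl, an alkaline phosphatase that also removes phosphate from nucleotides, rose 13.8-fold in LnF1 and 23.2-fold in ObF1 (log2 4.10, SE 0.30, limma adjusted p = 2.88e-06), and was known from earlier results. Of the 5 cell surface nucleotide breakdown genes tested, 1 rose, 1 fell and 3 did not pass, beside 19.2% higher and 24.8% lower among all genes.

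Urate exporters and transporters fell in 2 of 2 tested, beside 24.8% lower among all genes. Abcg2, a urate exporter, went in LnF1 from 60.9 to 28.8 CPM and in ObF1 from 57.3 to 27.0 CPM (log2 -1.08, SE 0.21, limma adjusted p = 0.00193), and Slc2a9, a urate transporter, from 4.88 to 1.83 and from 2.61 to 0.862 CPM (log2 -1.44). Uox, urate oxidase, which breaks uric acid down in mouse liver, never exceeded 0.304 CPM. The transcript of the enzyme that makes uric acid, Xdh, was present at 84.0 CPM or more with water and at 736 CPM or more with 1,3BD. That of the enzyme that degrades uric acid was near 0 with both drinks. Neither uric acid nor enzyme activity was measured in these data.

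Nucleotide interconversion genes fell in 4 of 10 and rose in 0, with 3 of 10 lower with library totals. For this list and those that follow, the share lower over all genes was 24.8%, or 17.7% with library totals. Ak5, an adenylate kinase best known from brain, fell in LnF1 from 38.0 to 1.22 CPM and in ObF1 from 26.6 to 2.03 CPM (log2 -4.27, SE 0.34, limma adjusted p = 5.87e-06). Gmpr, which turns GMP back into IMP, fell in LnF1 from 9.81 to 2.83 CPM and in ObF1 from 10.3 to 1.16 CPM (log2 -2.41), and Ak1, the abundant cytosolic adenylate kinase, by a log2 difference of -0.94. De novo synthesis genes fell in 5 of 11 and rose in 0, with Impdh1 at -0.87, Gart at -0.74 and Atic at -0.72, but with library totals 0 fell and 1 rose, and the list's median turned from -0.18 to 0.07. The remaining salvage genes fell in 2 of 7, namely Ahcy (log2 -1.08, limma adjusted p = 0.00203) and Mtap (log2 -0.67, limma adjusted p = 0.0218), of which Mtap did not pass with library totals. Ahcy releases adenosine from S-adenosylhomocysteine, and Mtap recovers adenine from methylthioadenosine, the base that Aprt salvages. Of the intracellular nucleotidases, 2 of 5 fell, Nt5c (log2 -0.96) and Nt5c3b (log2 -0.69, limma adjusted p = 0.0481), the latter not with library totals.

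**Figure D4:**
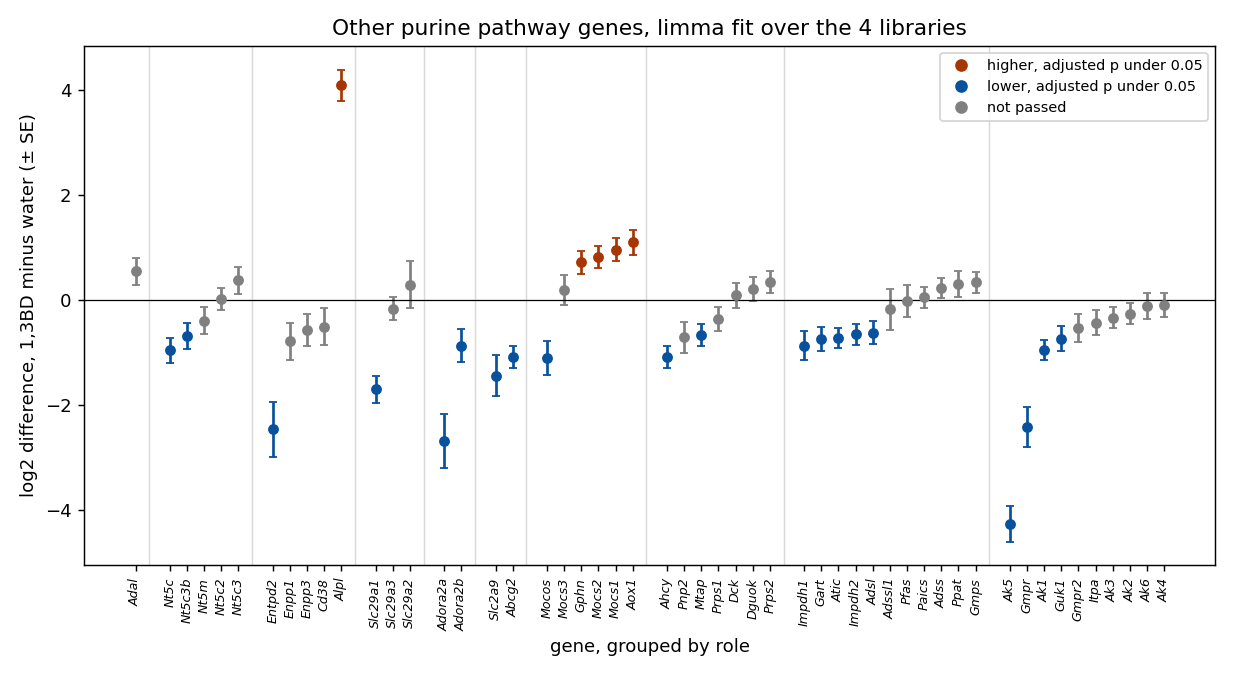
Log2 difference of 1,3BD minus water with its SE, from limma over the 4 libraries, for the 52 other purine pathway genes tested, grouped by role, with calls coloured by direction. Of the calls in the list of cofactor genes and the oxidase Aox1, Gphn, Mocs2, Mocs1 and Aox1 lie above 0 and Mocos below. Ak5 (-4.27) and Alpl (4.10) stand farthest from 0.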

How the data were processed

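Per the labels' protocols, TRIzol was used to extract RNA and a KAPA mRNA kit to build the libraries. The submitters' processing notes name mm10, edgeR and DESeq2, without role or version, and neither the aligner nor the counter nor its annotation is given there. The deposited table holds a scaled signal per gene: 100% of values were whole multiples of the smallest value in their column (relative tolerance 1e-06), so whole reads were recovered, with scaling factors of 0.950 (LnF1 water), 0.885 (ObF1 water), 1.13 (LnF1 1,3BD) and 1.05 (ObF1 1,3BD). Columns that name no drink were matched to water.

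Log2 differences use CPM plus 0.0796, worth 2 reads, which understates changes of low genes. limma 3.58.1 (R 4.3.3, trend, robust) was fitted to the 12838 genes that reached 1 CPM in 2 or more libraries, additive in parents and drink. This leaves 1 residual degree of freedom. Each SE therefore combines how far a gene's own differences failed to repeat with a spread that limma borrows from the other genes. SEs and p-values rest only on the spread between these libraries and do not measure the spread between pools of 1 kind. P-values were adjusted by Benjamini-Hochberg over all genes with a threshold of 0.05. edgeR 4.0.16 and DESeq2 1.42.0 on recovered reads, other scalings, filters and pseudocounts, and leaving out each library were alternatives. The fit was also run on simulated data in which only drink or only parents changed genes. That run does not show how the fit behaves on these unreplicated libraries. Members and lists were chosen with earlier results of these data known. Named pathway genes are up to 3 calls per role list and direction by size. Gene coordinates and exon lengths come from GENCODE M21. The list gene Prtfdc1 was not analysed here. Poisson intervals and floors cover counting error only.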

Additional observations from a re-analysis of the deposited data

How the results depend on the processing

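No paired analysis was possible because each combination of parents and drink has 1 library and the labels give no replicate numbers. Of the 52 other pathway genes, the 5 higher and 20 lower calls by drink became 8 and 10 with library totals, and the lower calls became 13 without parents as covariate. Leaving out each library gave 1 to 5 higher and 4 to 15 lower, fits in which the other factor leaves the model and the lone library of a level is assumed to vary like the others. Both counts were within 1.5 times of these with a pseudocount of 0.5 CPM, without a filter, with a minimum mean of 5 CPM, and in edgeR (5 and 18) and DESeq2 (5 and 14), and the parental counts were 0 in every alternative run. At 1.5-fold in place of 2-fold, 1 member (Aprt) instead of 0 was lower in ObF1 in both drinks. Of 40 member differences, 23 moved beyond counting error with library totals, 1 with TMM, and 0 with DESeq2 size factors or the larger pseudocount. None past 2-fold changed sign. Below that, Ampd2, Gda, Pnp and Hprt each had 1 difference near 0 that changed sign with library totals. Depth limits Nt5e, at 6 to 31 reads, and the absence of replicate pools limits every value.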

Other observations

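Chosen after their values were seen, some pathway genes stood apart in 1 library. Enpp1, an ectonucleotidase that makes AMP and pyrophosphate from ATP, stood at 25.9 CPM in ObF1 water and at 8.53 to 8.66 CPM in the other libraries. Ak4, a mitochondrial adenylate kinase, stood at 106 CPM in ObF1 water, against 57.6 CPM in LnF1 water, 72.7 CPM in LnF1 1,3BD and 74.0 CPM in ObF1 1,3BD. Cd38, which breaks down NAD outside the cell, stood at 9.04 CPM in LnF1 water and at 4.13 to 4.41 CPM elsewhere. In the additive fit none of these passed for parents or drink in limma, and with 1 library a combination the pattern of a single library has no replicate check.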
